A study of Mus musculus with 2 samples.

Results

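The Kruppel-like factors described here are the transcription factor genes Klf2, Klf3, Klf4, Klf6, Klf7, Klf9, Klf10, Klf12 and Klf13. They were chosen by name, as every probe set (a group of short probes on the array that reads 1 transcript) annotated to exactly 1 of these 9 gene symbols. This gave 35 probe sets for 9 genes, out of 18194 genes on the array that own a probe set. The study measured gene expression in natural killer (NK) cells from the liver of naive wild-type mice of the strain B6, with no treatment. One population was sorted as DX5- NK1.1+ CD3- and the other as DX5+ NK1.1+ CD3-, so both carry the NK cell surface marker NK1.1, both lack surface CD3 of T cells, and they differ in binding of DX5, an antibody to the integrin alpha 2 chain. Each population was read on 1 Affymetrix array of total RNA. With 1 array per population no difference has a spread between samples, none was tested and no p-value is given. The sources used here do not give the age, sex or number of mice behind an array. The 2 arrays also cannot tell more RNA per cell from more cells that express a gene.

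Kruppel-like factors bind CACCC boxes and related GC-rich DNA through C-terminal zinc fingers, and their differing N-terminal parts decide whether they activate or repress. The branch with Klf3 and Klf12 recruits the co-repressor CtBP. The branch with Klf2, Klf4, Klf6 and Klf7 is known mainly for activation, and the branch with Klf9, Klf10 and Klf13 binds the co-repressor Sin3A. In lymphocytes the family is best known through Klf2, which keeps T cells quiescent and switches on S1pr1, a gene for leaving tissues.

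All intensities are linear MAS5 units as deposited, pairs of intensities give DX5- first (DX5- against DX5+), and a log2 ratio is DX5- minus DX5+. The median intensity over 45101 probe sets was 70.3 against 78.0. A probe set counted as detected above 98.4 units on the DX5- array or 107 on the DX5+ array, limits set by genes such as olfactory receptors that these cells should hardly use. That set also held 3 genes with a beta-gamma crystallin domain, of which Crybg1 read 1205 and 2646; without them the limits were 76.0 and 82.3. In 4050 genes more than 1 probe set exceeded both limits. Between probe sets of the same gene the log2 ratio varied with an SD of 0.32, which corresponds to 1.25-fold; among the brightest genes it was 0.25. That SD covers probe noise only and leaves out differences between sorts, labellings and mice. As a check of the labels, Eomes, a T-box factor of circulating NK cells, read 1991 against 16107. Itga2, the gene of the DX5 antigen, was below both limits, at 29.0 and 105, and so checks nothing. Of 13 NK cell marker genes with a probe set, 13 were detected. The CD3 genes of T cells were higher on the DX5- array although both sorts excluded surface CD3, with Cd3g at 14036 against 1072.

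The members did not all lie on 1 side. Klf3, Klf12 and Klf2 were each at least 2-fold lower in DX5- cells and Klf7 was 1.75-fold lower. Klf10 and Klf9 were 1.65-fold and 1.42-fold higher, while the brightest probe sets of Klf4, Klf6 and Klf13 lay within 1.25-fold. Of the 9 genes, 3 were at least 2-fold lower, beside 5.36% of all 9861 detected genes, and 0 were at least 2-fold higher, beside 3.61%. These counts depend on the choice of members, made with earlier results of these data known. Klf5, a family member outside the 9, was 5.02-fold higher. Klf12 counted as detected only through its DX5+ value, so a difference was bound to appear for it. Of the 31 member probe sets above at least 1 limit, 9 lay past 2-fold on the lower side and 0 on the higher side, beside 4.98% and 3.37% of 18000 detected probe sets. Klf3 gave 6 of these 9, Klf12 gave 2 and Klf2 gave 1, so they are the same 3 genes. The 2 of Klf12 and 1458487_at of Klf3 were detected through the DX5+ value alone and could not come out higher. At 1.5-fold, 4 member genes were lower and 1 was higher, beside 13.5% and 10.6% of detected genes. The median log2 ratio was -0.28 over the 9 genes and -0.013 over all detected genes. Probe sets of 1 gene are not replicates, since several were designed on the same source sequence.

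**Figure D1:**
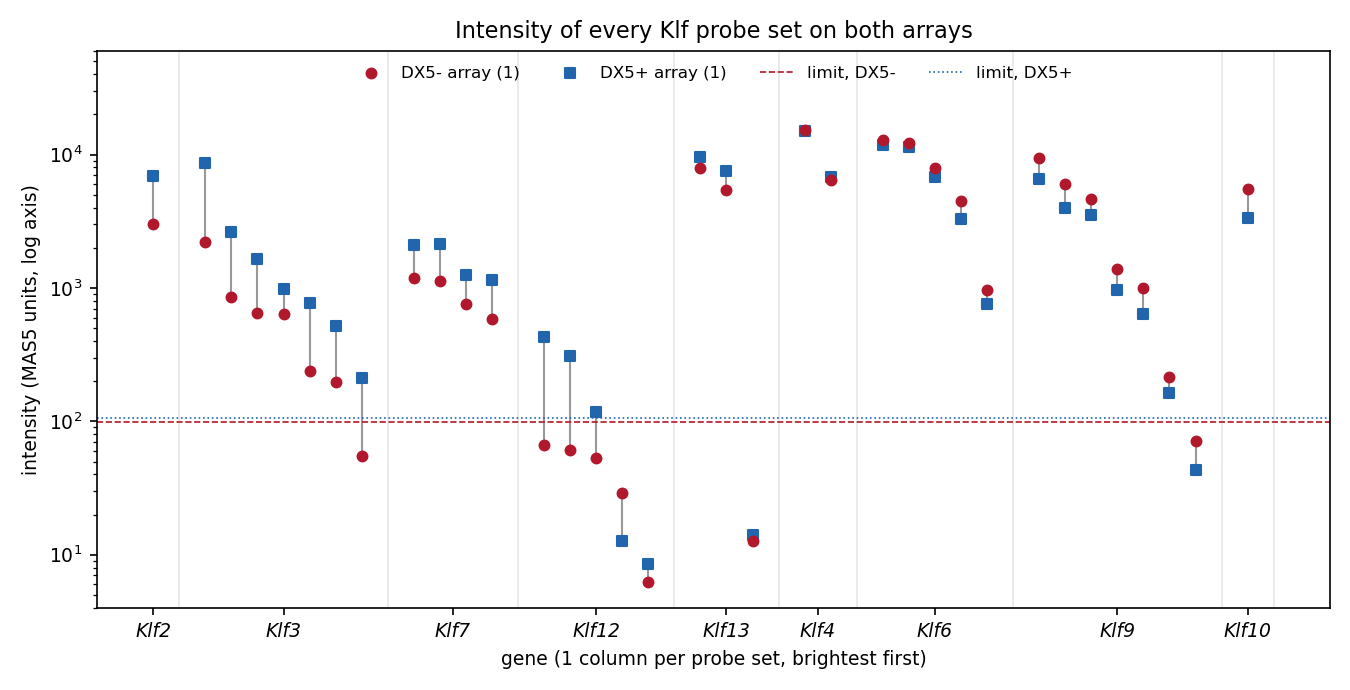
Intensity of each of the 35 Klf probe sets (log axis, MAS5 units) on the DX5- array (circles) and the DX5+ array (squares), 1 array each, with the 2 detection limits as lines. The squares lie above the circles for all probe sets of Klf2, Klf3 and Klf7, and the circles above the squares for all probe sets of Klf6, Klf9 and Klf10.

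Klf3, a repressor that works through CtBP, had the widest set of low readings. Its brightest probe set, 1454666_at, read 2222 in DX5- cells against 8701 in DX5+ cells, a 3.92-fold difference. The log2 ratio of -1.97 was 6.15 times the SD between probe sets. Only 0.892% of detected genes had a lower log2 ratio. The 7 Klf3 probe sets came from 7 different source sequences, and 7 of 7 were lower in DX5- cells.

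Those probe sets did not agree on the size of the difference. Probe set 1441200_at read 239 against 777, a 3.26-fold difference, and 1429360_at read 856 against 2634, a 3.08-fold difference. Probe set 1442920_at read 196 against 523, which is 2.67-fold, and 1421604_a_at read 647 against 1647, which is 2.54-fold. Thus 5 of the 6 probe sets above both limits were past 2-fold. The exception was 1431630_a_at, which read 637 against 976, a 1.53-fold difference. The dimmest, 1458487_at, was below the limit in DX5- cells at 54.9 and read 210 in DX5+ cells, at least 2.13-fold lower. The SD of the log2 ratio over the 6 probe sets above both limits was 0.46, above the 0.25 of bright genes. The mean over all 7 was -1.40, so Klf3 stayed past 2-fold when its probe sets were averaged.

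Klf12, the other CtBP-binding member, was above the limit in DX5+ cells alone. Probe set 1439847_s_at read 66.9 in DX5- cells against 430.5 in DX5+ cells, at least 4.37-fold lower in DX5- cells. Probe set 1455521_at read 60.9 against 310.4, at least 3.15-fold lower. Probe set 1439846_at read 52.8 against 117, barely above the limit, with a bound of 1.19-fold. The remaining 2 probe sets were below both limits, at 29.1 against 12.7 and at 6.2 against 8.5, and say nothing on direction. The size for Klf12 rests on the limit: with no limit the log2 ratio was -2.69, and with the limit set without the beta-gamma crystallin domain genes it was -2.50. At the 99th percentile of the limit-setting genes, 377 units on the DX5- array, it was -0.19 and no longer past 2-fold, since that limit lies far above the DX5- reading of 66.9.

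Klf2, the quiescence and trafficking factor, is read by 1 probe set, 1448890_at. It read 3039 in DX5- cells against 6943 in DX5+ cells, a 2.28-fold difference. The log2 ratio of -1.19 was 3.72 times the SD between probe sets, and 3.62% of detected genes had a lower ratio. No second probe set bears on it. When the arrays were scaled to the hybridisation spike-in controls, which raised the median of all detected genes from -0.013 to 0.20, Klf2 stood at -0.97, just short of 2-fold.

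Klf7, an activator known from neurons and T cell precursors, was 1.64-fold to 1.98-fold lower in DX5- cells on its probe sets. Probe set 1419354_at read 1197 against 2100, a 1.75-fold difference, and 1449439_at read 1121 against 2148, a 1.92-fold difference. Probe sets 1419356_at and 1419355_at read 761 against 1245 and 581 against 1148, which are 1.64-fold and 1.98-fold. All 4 were lower in DX5- cells, with an SD of 0.12. They were designed on 1 source sequence, so they do not count as separate evidence.

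Klf13, which activates the chemokine gene Ccl5 in T cells, was slightly lower in DX5- cells. Probe set 1436316_at read 7897 against 9572, a 1.21-fold difference, and 1432543_a_at read 5452 against 7493, a 1.37-fold difference. The first of these, at -0.28, lies within the SD of 0.32 over all genes but outside the 0.25 of bright genes, and the second, at -0.46, lies outside both. The dimmest, 1456030_at, was below both limits at 12.6 and 14.1.

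**Figure D2:**
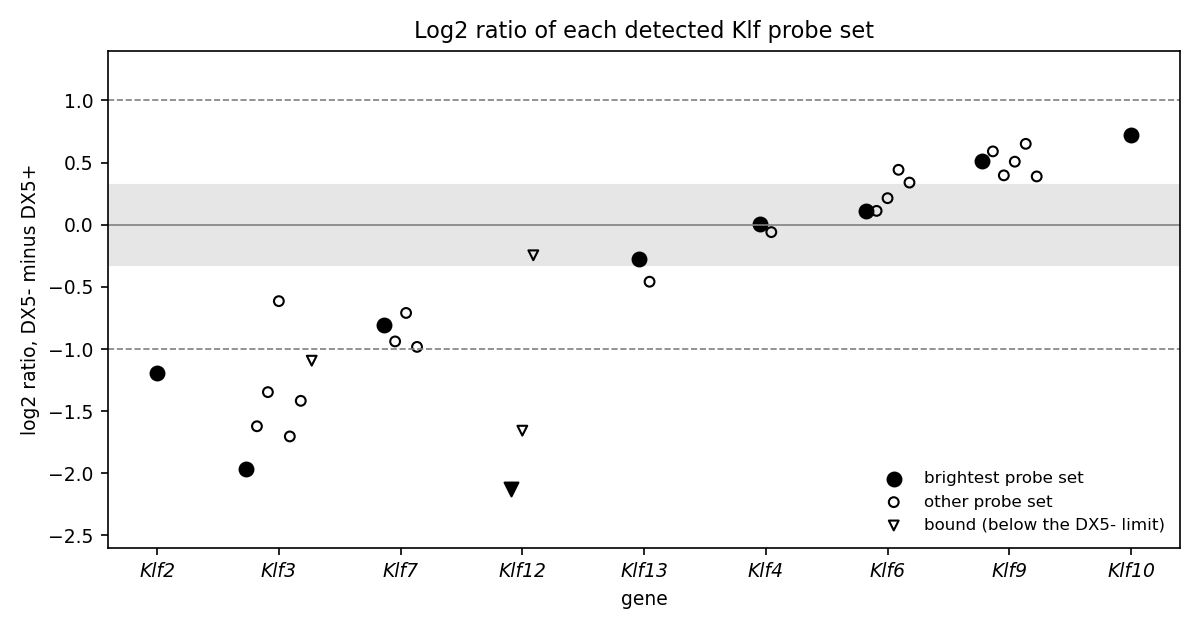
Log2 ratio (DX5- minus DX5+) of the 31 detected Klf probe sets by gene; filled symbols are the brightest probe set of each gene, triangles are bounds, the grey band is the SD of 0.32 between probe sets of 1 gene and dashed lines mark 2-fold. Klf3 spans from -1.97 to -0.61, while the 4 probe sets of Klf7 and the 6 of Klf9 lie close together.

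Klf4, a factor of monocyte differentiation that also restrains CD8 T cell proliferation, read nearly the same in both populations. Probe set 1417394_at read 15188 in DX5- cells against 15129 in DX5+ cells, and 1417395_at read 6498 against 6771. The log2 ratios were 0.0056 and -0.059, of opposite sign and far inside the SD between probe sets, so Klf4 has no direction here. Its readings stood apart from those of Klf2, which belongs to the same branch of the family.

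Klf6, which many cell types induce within minutes of stimulation, was higher in DX5- cells on 5 of 5 probe sets, by 1.08-fold to 1.36-fold. These 5 came from 4 source sequences. The brightest, 1427742_a_at, read 12819 against 11874 and 1433508_at read 12260 against 11349. The probe set with the largest ratio, 1418280_at, read 4481 against 3299. Only this probe set and 1459718_x_at (958 against 758, 1.26-fold) lay outside the SD of 0.32.

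Klf9, a gene induced by glucocorticoids and thyroid hormone, was higher in DX5- cells on all 6 probe sets above both limits, by 1.31-fold to 1.57-fold. The brightest, 1456341_a_at, read 9350 against 6568, and 1428288_at read 6003 against 3988. Probe set 1422264_s_at read 995 against 634 and had the largest ratio. The SD over these 6 probe sets was 0.10, so the small difference was alike from bright to dim probe sets. They are not all separate evidence, since 1428288_at and 1428289_at were designed on 1 source sequence. No source sequence was given for 1456341_a_at and 1436763_a_at. The dimmest, 1452723_at, was below both limits at 71.5 and 42.9.

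Klf10, first described as a gene induced early by TGF-beta, had the largest ratio among the higher members. Its 1 probe set, 1416029_at, read 5490 in DX5- cells against 3325 in DX5+ cells, a 1.65-fold difference. The log2 ratio of 0.72 was 2.26 times the SD between probe sets, and 7.35% of detected genes had a higher ratio. The same measure was 2.53 for Klf7 and 1.59 for Klf9.

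**Figure D3:**
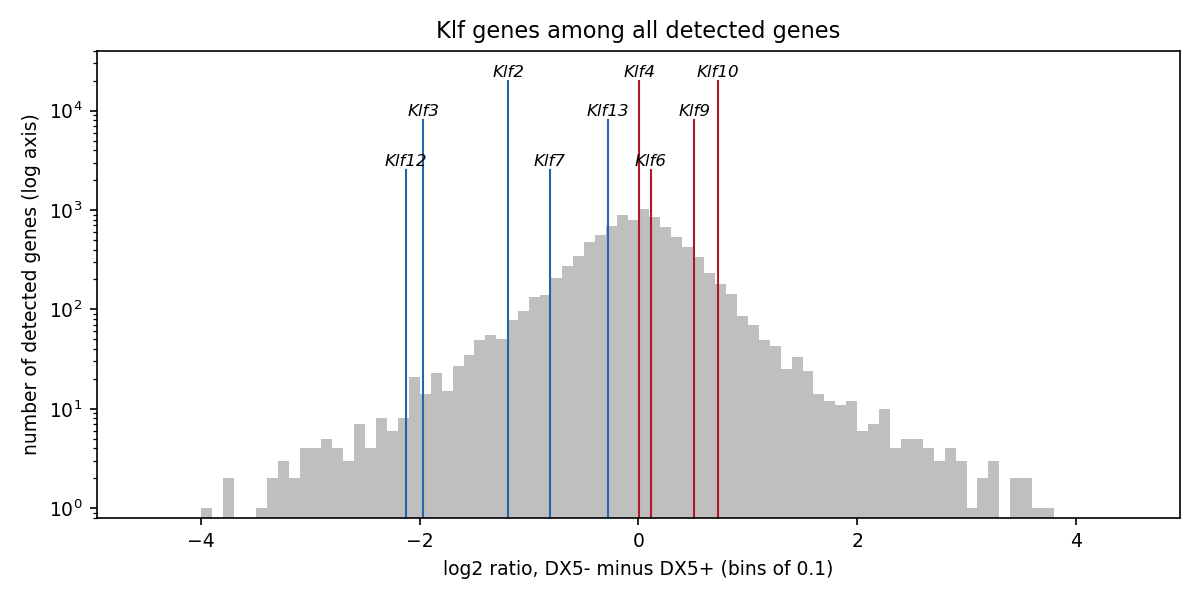
Number of detected genes (log axis) by log2 ratio of DX5- minus DX5+ in bins of 0.1 for all 9861 detected genes, with the 9 Klf genes as vertical lines. Klf12 (a bound) and Klf3 lie in the lower tail, Klf4 and Klf6 near 0, and Klf10 at 0.72.

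The lower members were examined for shared promoter letters. RefSeq promoters (build GRCm38.p6) matched 8 of the 9 members by symbol; Klf10 was not among them. The 250 bases before the annotated start are shown for the 3 members past 2-fold on the lower side and, for contrast, for Klf9, a higher member. They lie at chr8:72318812-72319061 (plus strand) for Klf2, chr5:64803271-64803520 (plus strand) for Klf3, chr14:100149797-100150046 (minus strand) for Klf12 and chr19:23140976-23141225 (plus strand) for Klf9. Capitals mark CACCC, the box that Kruppel-like factors bind, and GGGCG, the core of a GC box, on either strand, as well as the binding motif of the MEF2 factors. Each is written 5′ to 3′ on the strand of its gene.
Klf2: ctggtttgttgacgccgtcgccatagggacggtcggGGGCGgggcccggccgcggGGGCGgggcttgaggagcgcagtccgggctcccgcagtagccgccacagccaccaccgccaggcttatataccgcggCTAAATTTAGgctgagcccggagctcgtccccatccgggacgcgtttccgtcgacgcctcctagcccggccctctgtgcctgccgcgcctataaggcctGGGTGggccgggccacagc
Klf3: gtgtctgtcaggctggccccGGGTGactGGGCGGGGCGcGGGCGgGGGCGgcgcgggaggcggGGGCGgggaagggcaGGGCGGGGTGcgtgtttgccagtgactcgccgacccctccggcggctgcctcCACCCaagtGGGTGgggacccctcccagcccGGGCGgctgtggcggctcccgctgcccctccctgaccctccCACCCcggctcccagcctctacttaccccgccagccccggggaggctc
Klf12: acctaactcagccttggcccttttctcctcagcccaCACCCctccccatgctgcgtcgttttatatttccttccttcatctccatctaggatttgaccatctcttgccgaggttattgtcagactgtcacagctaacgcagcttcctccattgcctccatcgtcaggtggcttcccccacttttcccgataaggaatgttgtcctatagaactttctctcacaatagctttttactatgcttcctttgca
Klf9: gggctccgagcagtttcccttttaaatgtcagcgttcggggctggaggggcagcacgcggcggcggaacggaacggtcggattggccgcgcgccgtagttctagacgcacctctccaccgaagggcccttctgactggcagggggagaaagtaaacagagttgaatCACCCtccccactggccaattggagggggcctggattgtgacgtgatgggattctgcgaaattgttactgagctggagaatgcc

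The promoters of the lower members did not look alike. Klf3 held 5 CACCC matches and 7 GGGCG matches and was 78.4% G and C. Klf12 held 1 CACCC match and 0 GGGCG matches and was 48.0% G and C. Klf2 held 1 and 2, and the higher member Klf9 held 1 and 0. Over all 8 members, 6 held CACCC and 6 held GGGCG, beside 52% and 43.7% of 32841 RefSeq promoter windows of the same length. Those windows were not matched for G and C, in which both motifs are rich. Their median was 52.4% G and C and their 90th percentile 69.2%. Klf2 (71.2%), Klf3, Klf4 (74.0%) and Klf13 (71.6%) lay above that percentile. In Klf13 alone 1 CACCC match overlapped a GGGCG match. The MEF2 motif, looked for after the sequences had been read, occurred as CTAAATTTAG between 118 and 109 bases before the start of Klf2. It was found in 1 of the 8 members and in 0.509% of all windows. A match of letters is a description and not a binding site.

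Genes known to act upstream of Klf2 were read next, because MEF2 and FOXO factors and the kinase Erk5 (Mapk7) control Klf2 in other cells. All 10 such genes were detected; 1 lay past 2-fold on the lower side in DX5- cells and 0 on the higher side (median log2 ratio -0.14). The lower gene was Mef2c, at 240 against 736, a 3.07-fold difference. With the 99th percentile limit its bound was -0.97 on the log2 scale and short of 2-fold. The probe sets of the other MEF2 genes disagreed. Mef2a read 4172 against 4208 on its brightest probe set but was up to 1.48-fold higher on others. Mef2d read 3925 against 4462 on its brightest and was 1.98-fold and 1.69-fold higher on its other probe sets. Foxo1 read 7008 against 7749 and was picked with its values known. Map2k5, the kinase that activates Erk5, was 1.73-fold higher, or just past 2-fold with spike-in scaling. Foxo4 was 1.27-fold higher, and the probe sets of Map3k2 differed in direction, the brightest being 1.25-fold lower.

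Genes linked to Klf2 in lymphocytes, listed with earlier results of these data known, did not all lie on the side of Klf2. Of 7 with a probe set, 3 lay past 2-fold on the lower side and 0 on the higher side, and the median log2 ratio was -0.45. The shares of all detected genes were 5.36% and 3.61%. S1pr1, the receptor for exit from tissue, read 381 against 1862. S1pr5, the exit receptor of NK cells, was at least 15.6-fold lower at 35.8 against 1531, or at least 4.07-fold with the 99th percentile limit. S1pr5 was detected through its DX5+ value alone, so a difference was bound to appear for it. Ccr7, a lymph node homing receptor, read 731 against 1543, which is 2.11-fold lower; it fell short of 2-fold with median scaling (-0.96) and with spike-in scaling (-0.86). On the other side, Cdkn1a, a cell cycle inhibitor that Klf2 activates, was 1.80-fold higher (10238 against 5676; past 2-fold with spike-in scaling, at 1.07), and Itgb7, an integrin chain gene, was 1.54-fold higher (4545 against 2948).

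The partners of the repressor members were mostly even. Among 9 detected co-repressor genes, 1 was past 2-fold, on the lower side (median log2 ratio -0.10). Ctbp2, a co-repressor bound by Klf3 and Klf12, read 290 against 709, a 2.45-fold difference, and its second probe set read 150 against 415. With the 99th percentile limit its bound was -0.91 on the log2 scale, short of 2-fold. Its relative Ctbp1, named after its values were seen, read 4735 against 4264. Sin3a, the partner of Klf9, Klf10 and Klf13, was 1.37-fold lower on its brightest probe set. Its other probe sets were 1.08-fold and 1.60-fold lower. Hdac1 was 1.22-fold higher and Rcor1 1.16-fold higher. The 4 co-activator genes Ep300, Crebbp, Kat2a and Kat2b were within 2-fold on their brightest probe sets, Kat2a being the farthest apart at 1.26-fold higher. A dimmer probe set of Kat2b read 93.8 against 203, at least 2.06-fold lower.

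Genes for the turnover of these proteins included 1 that was past 2-fold of 7 detected. Fbxw7, the substrate receptor of a ubiquitin ligase that targets Klf2, read 1265 against 3201, a 2.53-fold difference, and 877 against 1829 on a second probe set. Wwp1, another ubiquitin ligase for Klf2, was 1.22-fold lower. Vhl was 1.21-fold lower. Usp9x had no common direction, being 1.20-fold higher on its brightest probe set and 1.62-fold lower on another. The median log2 ratio of the 7 genes was 0, the value given to Btrc, which was barely above 1 limit.

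Among family members outside the 9 genes, 14 of 17 Klf and Sp genes had a probe set and 7 were detected. Klf5, a factor of proliferating epithelium, was the 1 gene past 2-fold and was higher in DX5- cells. It read 940 against 187, a 5.02-fold difference, and 291 against 139 on a second probe set. None of the other 6 reached 2-fold, among them Klf16 (1.34-fold higher), Sp4 (1.29-fold higher) and Sp3 (1.27-fold lower). The median over these 7 genes was 0.25, a bound for Sp6, against -0.28 for the 9 members; no test sets these apart.

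The higher members were set beside the signals that induce them. In the TGF-beta pathway, which induces Klf10, 11 genes were detected and 0 were past 2-fold on their brightest probe sets (median log2 ratio -0.0090). Smad7, an inhibitor of the pathway picked with its values known, read 4000.5 against 4025 on that probe set but 5115 against 1393 on a second, a 3.67-fold difference. Tgif1 was 1.36-fold higher, Tgfbr2 1.32-fold higher, Smad2 1.33-fold lower and Tgfb1 1.24-fold lower. The glucocorticoid response, which includes Klf9, had 7 genes detected, 1 past 2-fold on each side (median log2 ratio 0.29). Zbtb16 was 2.02-fold higher, but short of 2-fold with an offset of 50 (0.94) and when its probe sets were averaged (0.81), and Nr3c1, the glucocorticoid receptor gene, 1.95-fold higher (5792 against 2963); with median or spike-in scaling Nr3c1 was also past 2-fold. Per1 was 1.43-fold higher, whereas Sgk1 was 3.50-fold lower (4679 against 16384). The remaining genes of the list, named after their values were seen, were nearer to even. Fkbp5 was 1.23-fold and Dusp1 1.17-fold higher, and Tsc22d3 read 13056 against 13341.

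Immediate early genes, which respond to stimulation or handling within minutes, were mostly higher in DX5- cells. All 25 on the list were detected, with a median log2 ratio of 0.81. Past 2-fold lay 9 on the higher side and 0 on the lower side, beside 3.61% and 5.36% of all detected genes. With spike-in scaling 14 were past it on the higher side, but that scaling also raised the count over all detected genes from 356 to 623. Junb was 2.90-fold, Cd69 2.56-fold, Egr2 2.53-fold and Atf3 2.49-fold higher. The inducible members Klf10 and Klf6 lay on the same side, Klf4 did not share it with a log2 ratio of 0.0056, and Klf2 lay on the opposite side. The part of handling or stimulation in the Klf ratios was not tested.

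**Figure D4:**
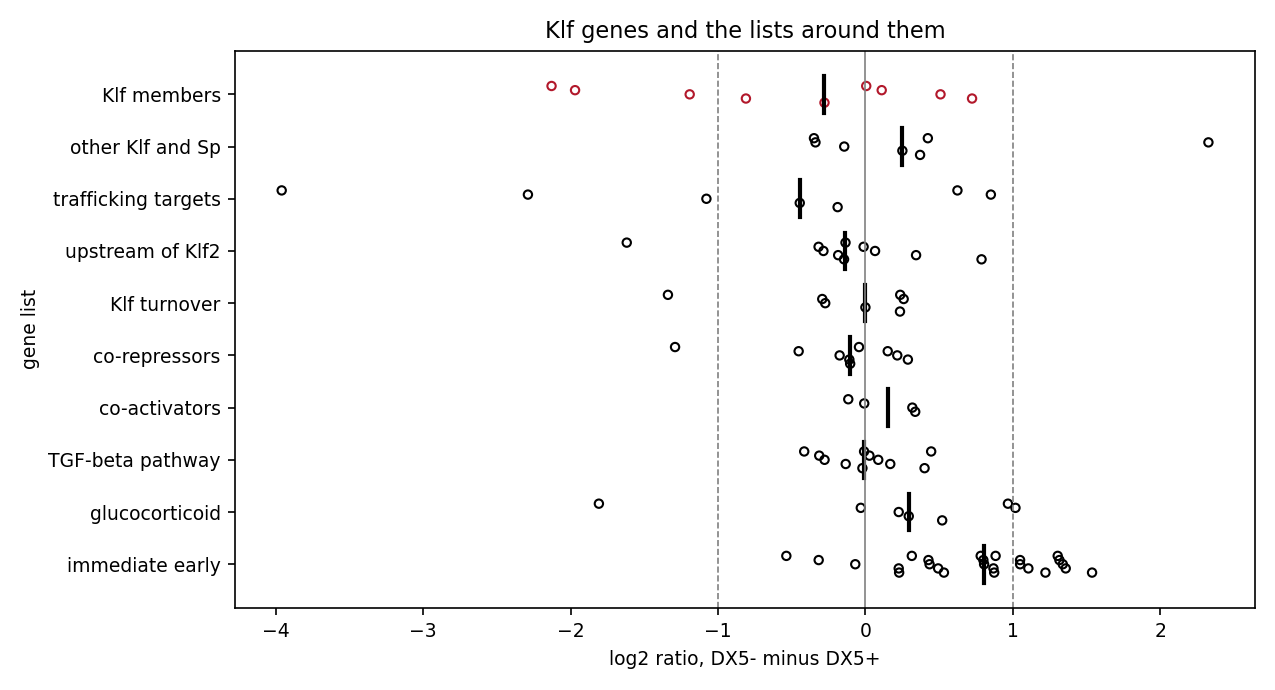
Log2 ratio (DX5- minus DX5+) of each detected gene in the Klf family and in the lists around it, with bounds for genes below 1 limit; bars mark medians and dashed lines 2-fold. The immediate early genes have a median of 0.81, and the 9 Klf genes spread from -2.13 to 0.72.

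Detected markers of platelets, macrophages and neutrophils mostly differed between the arrays on the same side as Klf2, Klf3 and Klf12. Platelet genes were past 2-fold on that side for 7 of 8, of which 3 were detected through the DX5+ value alone, and for 3 with the 99th percentile limit. Their intensities summed to 1310 in DX5- cells against 5987 in DX5+ cells. Macrophage genes summed to 788 and 1945. They were detected for 4 of 13 and past 2-fold for 3, of which 1 was detected through the DX5+ value alone. Only 1 stayed past 2-fold with the 99th percentile limit or with an offset of 50. Defining Kupffer cell markers, Clec4f, Timd4 and Vsig4 among them, were below both limits. Neutrophil genes were past 2-fold for 3 of 6 detected, with sums of 3862 and 9787. Hepatocyte genes summed to 1564 and 2280, with 1 of 4 detected genes past 2-fold. Dendritic cell genes summed to 11160 and 15755, with 1 of 7 detected genes past 2-fold.

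Endothelial cells express Klf2 and Klf4 strongly. Of 15 endothelial genes 10, including Cdh5, Lyve1, Stab1 and Tek, were below both limits, and the sums were 1652 and 1902. T cell genes went the other way, with 5 of 9 detected genes past 2-fold on the higher side and sums of 29247 and 12161. The widest gap within those sums was that of Cd3g, at 14036 against 1072. Cd4 and Cd8b1 were below both limits. Cd28, named after its values were seen, read 7668 against 8442. The sums for B cell genes were 1723 and 1770. The part of these cells in the Klf ratios was not tested.

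The direction of 8 of the 9 members was the same in each of 10 alternative ways of processing. Klf4 was the exception and had no direction. This agreement is a weak check, because several alternatives could not change a direction. Those that changed only the detection limit left the ratio of every member except Klf12 as it was. Where the Klf12 ratio was a bound, it could not turn sign. Klf6 fell to 0.057 with quantile normalization and Klf13 shrank to -0.060 with spike-in scaling, so both came close to even. Klf3 ranged from -2.01 to -1.40 and was past 2-fold in every setting. Klf7 ranged from -0.86 to -0.59, Klf9 from 0.45 to 0.73 and Klf10 from 0.69 to 0.94, so that none of these 3 reached 2-fold.

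**Figure D5:**
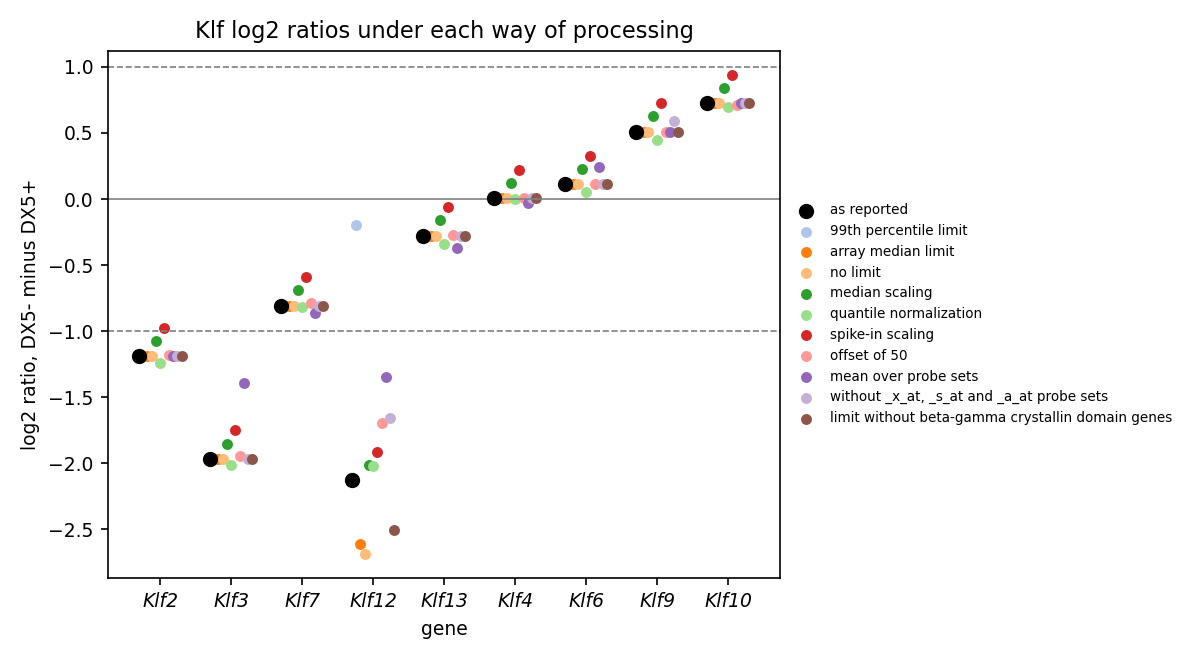
Log2 ratio (DX5- minus DX5+) of each Klf gene as reported (black) and under 10 alternatives (colours); dashed lines mark 2-fold. Klf12 spans from -2.69 to -0.19 with the detection limit and Klf3 from -2.01 to -1.40, and the other members move less.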

How the data were processed

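The deposited table held linear intensities of 45101 probe sets on each array, which the authors made with MAS5, per the submitters' processing notes; its version is not stated there. With the lowest and highest 2% left out, the mean intensity was 499.8 on both arrays. From the platform annotation, 34958 probe sets had 1 gene symbol and 932 had several, and the other 9211 are unnamed here; 34754 matched RefSeq by gene identifier and 0 were renamed. Intensities were taken to log2 with no offset (Python 3.11.15, pandas 2.3.3). A gene was represented by its brightest probe set. The detection limit was the 95th percentile of 154 probe sets of opsins, crystallins, keratin-associated proteins and receptors for smell, pheromones and taste. A gene above 1 limit only was set against the other array's limit, and its fold is a bound. Genes at least 2-fold apart were counted, a description with no test; the number of arrays limits the precision. The steps were tested on simulated data. RefSeq promoters were searched for motifs on both strands; a planned reading of protein sequences was not made. Members and lists were chosen with earlier results of these data known. Every member was named, and up to 4 detected genes per other list with the largest ratios, plus S1pr1, S1pr5 and Ccr7; 1 further gene of that rule is not reported here.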

Additional observations from a re-analysis of the deposited data

How the results depend on the processing

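The Klf values, the gene lists, the shares of all genes and the other named genes were recomputed under up to 11 alternatives, 1 of them, a limit without the beta-gamma crystallin domain genes, chosen after seeing the data. A value counted as moved when it shifted by more than the SD of 0.32 between probe sets, or a count by over 1.5 times. Of 1215 values, 94 moved and 0 turned sign from beyond that SD; of 90 member ratios 82 stayed within it, and of 455 ratios of other named genes 21 moved. A change of limit alone leaves the ratio of a gene that stays above both limits as it was, so those ratios could not move. The stellate cell list gave no value with the 99th percentile limit. At a 1.5-fold threshold 1 Klf gene was higher and 4 were lower. The 3 genes at least 2-fold lower became 2 with spike-in scaling, without Klf2, and 2 with the 99th percentile limit, without Klf12. The 99th percentile limit still held the beta-gamma crystallin domain genes and was not recomputed without them. Over all genes, 356 were higher and 529 lower as reported, 623 and 348 with spike-in scaling, 460 and 413 with median scaling, 292 and 252 with the 99th percentile limit, and 1890 and 2840 with no limit. Spike-in scaling moved the median of detected genes to 0.20 and median scaling to 0.097; the cause was not tested. No paired analysis was possible because each population has 1 array, and no replicate could be left out.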
